A study of Homo sapiens with 12 samples.

Results

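The regions described here were called for RORγ alone in vehicle-treated cells. They are the peaks of the RORγ vehicle library that shared no base with any peak of the SREBP2 vehicle library and none with any peak of the H3K27ac vehicle library, and 105682 of 167264 RORγ peaks on chromosomes 1 to 22 and X met that rule. Calls with vehicle chose them, so their lack of SREBP2 and of acetylation with vehicle is a description and not a result. The 167264 peaks include many weak calls. The study's own high-confidence RORγ set, filtered by false-discovery rate and reproducibility, was smaller, and the paper reports most of it as shared with SREBP2. That filtering was not used to choose the regions, so the share of RORγ-only peaks describes this longer list and not the study's set. HCC70, an established basal triple-negative breast cancer line, was grown in serum-containing RPMI and treated for 24 h with XY018 or its vehicle. XY018 is an antagonist of RORγ, and its dose is 5 µM per the labels but lower in the study's methods. Chromatin was immunoprecipitated with antibodies against SREBP2, RORγ or H3K27ac, and the RORγ antibody was a rabbit serum raised against a fragment of the human protein. Each of the 6 groups of antibody and treatment held 1 library, all from that single cell line at passages that the labels give as a range, so there are no p-values, and differences between treatments have no replicate check. Intervals below are exact 95% intervals and cover counting error only.

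RORγ is a nuclear receptor that binds DNA as a monomer, at a receptor hexamer of the form AGGTCA preceded by an A/T-rich stretch, the ROR response element or RORE. In immune cells its isoform RORγt drives the Th17 programme, and in other tissues RORγ acts on clock and metabolic genes. SREBP2 is the main activator of cholesterol biosynthesis genes, and H3K27ac marks active promoters and enhancers. Alu elements are short interspersed repeats of primates, present in very many diverged copies, most of them in introns and gene-rich DNA. SVA elements are younger composite repeats with a GC-rich tandem repeat inside them.

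Most of the RORγ-only sites lay on Alu sequence. A consensus of the element, 291 bases long, was read from the genome itself, as the most frequent letters around the most frequent word of 15 bases, and the receptor hexamer AGGTCA lies at its bases 67 to 72. The strongest site with Alu sequence that was called again with XY018 lay in an intron of the gene ENSG00000226965, at chr7:110110992-110111192 of hg19 (GRCh37), and the strongest that was not called again lay in an exon of ZIM2-AS1, at chr19:57196061-57196261. Their aligned bases matched the consensus at 84.2% and 79.1%, over its bases 32 to 231 and 43 to 236. The strongest site of all lay in an intron of LINC02341, at chr13:43050316-43050516, and held no Alu. It holds a GC-rich tandem repeat that resembles the one in SVA elements, a name that was not checked against a repeat annotation.

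The sequences of 2 sites outside these repeats are shown, 100 bases to either side of the summit. The strongest site in a protein-coding gene with neither repeat lay in an intron of PCGF3, which encodes a Polycomb group RING finger protein, at chr4:741420-741620 (plus strand). A GC-rich unit of 35 bases that occurs 2 times in it is in capitals.
PCGF3: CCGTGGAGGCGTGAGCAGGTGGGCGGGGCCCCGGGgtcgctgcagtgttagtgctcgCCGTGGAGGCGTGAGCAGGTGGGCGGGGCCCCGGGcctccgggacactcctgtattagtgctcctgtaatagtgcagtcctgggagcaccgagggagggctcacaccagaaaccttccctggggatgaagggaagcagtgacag

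The other, from an intron of GLIS2, at chr16:4367876-4368076 (minus strand), holds 2 receptor hexamers, in capitals, outside any Alu copy, and is shown because such hexamers were mostly inside Alu.
GLIS2: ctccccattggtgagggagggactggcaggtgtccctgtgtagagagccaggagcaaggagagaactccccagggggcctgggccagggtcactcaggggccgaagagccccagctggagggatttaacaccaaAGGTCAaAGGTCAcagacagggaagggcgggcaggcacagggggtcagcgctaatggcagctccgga

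The RORγ-only sites were weak. The fold enrichment of a peak, the authors' ratio of the summit pileup plus 1 to the local background plus 1, had a median of 3.36 over them (quartiles 2.88 to 3.92, range 1.63 to 13.4), against 5.28 over all other RORγ peaks. The fold and p of each peak, inverted under the Poisson model of the peak caller, gave a median of 6 fragments at the summit (quartiles 5 to 7, highest 140), against 10 at the other RORγ peaks. At most 6 fragments stood behind 65.5% of the RORγ-only sites and behind 22.4% of the others, and at most 10 behind 97.3% and 50.6%. A q of at most 0.01 was met by 41.6% of the RORγ-only sites and by 79.3% of the other RORγ peaks. A q of at most 1e-05 was met by 3057 of the RORγ-only sites (2.89%) and by 51.6% of the other RORγ peaks. The median width was 216 bp, close to the shortest width in the list, 195 bp. These values come from the peaks that chose the sites and are given as a description.

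Depth, as inferred from the peaks, was 4.04 tags per kb for RORγ with vehicle and 3.65 with XY018, and between 5.56 and 6.16 in the other 4 libraries. H3K27ac was called with vehicle at the promoters of 6 of 7 basal marker genes (all but KRT14) and of 3 of 5 luminal ones, among them GATA3 and FOXA1. The H3K27ac folds ran from 3.76 at TP63 to 83.2 at EGFR among the basal genes. Among the luminal ones they were 5.07 at ESR1, 68.9 at GATA3 and 97.4 at FOXA1. Peak numbers in the H3K27ac vehicle list run up to 245055, so the list is a selection, and a site outside it need not lack all acetylation. The median distance of a RORγ-only site to the next H3K27ac peak was 51900.5 bp, and 75.3% lay more than 10 kb from one. For SREBP2 the median was 7072.5 bp, and 16.9% lay within 1 kb.

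The rule turns on a single shared base. At its edge, 543 RORγ-only sites ended less than 20 bp from an SREBP2 or H3K27ac peak, and 567 of the other RORγ peaks shared at most 20 bp with one. The median fold was 3.36 in both, the share called again with XY018 was 31.5% and 34.0%, and the share with Alu sequence 43.3% and 44.4%, in that order.

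The first comparison asks whether RORγ was still called at these sites after the antagonist. Of the 105682 RORγ-only sites, 16492 overlapped an RORγ peak of the XY018 library, which is 15.6% (15.4 to 15.8), against 36.4% of all RORγ vehicle peaks. The share was 10.9% (9.88 to 11.9) at the 3691 RORγ peaks with H3K27ac and no SREBP2, 64.5% (64.0 to 65.0) at the 33710 with SREBP2 and no H3K27ac, and 92.0% (91.6 to 92.3) at the 24181 with both. A missing call does not by itself show a loss of RORγ, as most of these sites rest on a few fragments. The paper reports little effect of XY018 on RORγ binding across the genome, from signal profiles and not from shared calls. Where binding was lower, binding in fewer cells and weaker binding in each cell cannot be told apart in these bulk samples. Because weak peaks are called again less often, the classes were also compared within 10 equal-sized classes of vehicle fold. There the share at RORγ-only sites minus that at all other RORγ peaks was -28.3 percentage points (-28.9 to -27.6). The difference was -29.1 points (-29.8 to -28.4) from peaks with SREBP2 alone and -48.1 (-49.6 to -46.6) from peaks with SREBP2 and H3K27ac. From peaks with H3K27ac alone it was 4.73 points (3.69 to 5.78), so these were called again less often than the RORγ-only sites.

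**Figure D1:**
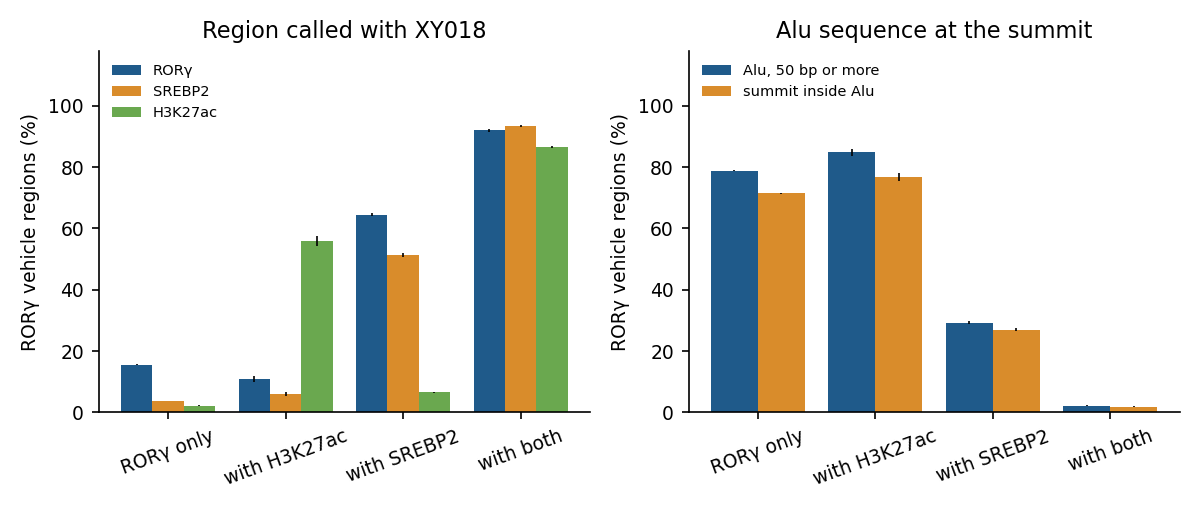
Share of RORγ vehicle peaks (%) in 4 classes, RORγ only, with H3K27ac, with SREBP2 and with both, that overlapped a peak of each antibody with XY018 (left) or held Alu sequence at the summit (right), with exact 95% intervals as bars. RORγ-only sites were called again in 15.6% and held Alu in 78.9%, and the H3K27ac and SREBP2 bars follow in part from the classes themselves.

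The share called again increased with the number of vehicle fragments in both groups and stayed lower at RORγ-only sites throughout. With 3 or 4 fragments at the summit it was 8.10% of RORγ-only sites and 28.5% of other RORγ peaks. With 6 fragments it was 15.4% and 40.05%, with 8 or 9 it was 23.1% and 59.5%, and with 13 or more it was 46.3% of 842 RORγ-only sites and 98.9% of the others. At a q of at most 1e-05, 36.3% of the RORγ-only sites and 91.6% of all RORγ vehicle peaks were called again. These 2 sets still differed in strength, with a median of 11 and 21 vehicle fragments. The open class of 13 or more is also unlike in strength, as the highest counts were 140 at RORγ-only sites and 390 at the others.

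**Figure D2:**
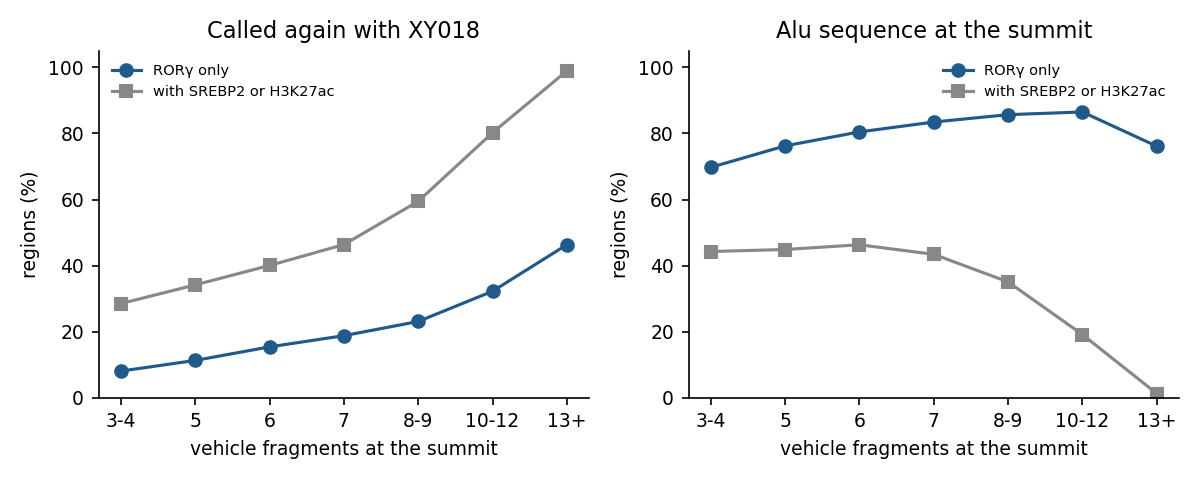
Share of RORγ-only sites (blue) and of all other RORγ vehicle peaks (grey) called again with XY018 (left, %) and with Alu sequence at the summit (right, %), by fragments at the vehicle summit. The blue line on the left goes from 8.10% to 46.3% and the grey line from 28.5% to 98.9%, while on the right the grey line ends at 1.30% and the blue line at 76.1%.

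The sites were called again more often than the DNA around them. Windows of the same length were placed 10 kb to either side of each site, and the 186347 that met no vehicle peak of any antibody were kept. An XY018 RORγ peak overlapped 2.34% of them (2.27 to 2.41), against 15.6% of the sites. Among windows with Alu sequence the share was 7.74%, against 15.8% of the sites with Alu sequence. Among windows without it the share was 1.32%, against 14.7% of the sites without Alu sequence. In the opposite direction, of the 81806 XY018 RORγ peaks with no SREBP2 and no H3K27ac peak of the XY018 libraries, 26.5% lay on a vehicle RORγ peak and 17.7% on an RORγ-only site.

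At the 16492 sites called in both libraries, the summit pileup with XY018, scaled by the genome-wide background of each library, was a median 1.11 times that with vehicle (quartiles 0.86 to 1.33). It was at least 1.5-fold higher at 2261 sites (13.7%), where 15.7% of all RORγ pairs were, and at least 1.5-fold lower at 1264 (7.66%), where 7.01% of all pairs were. A pair needs a call in both libraries, so sites that weakened below calling are not in these counts. When the pairs were chosen on the XY018 side instead, the median was 0.983. The median pair had 7 fragments with vehicle and 6 with XY018. Among the 368 pairs with 30 or more fragments in all, the median ratio was 5.85, but in 287 of them the XY018 peak also covered a neighbouring RORγ vehicle peak that was not an RORγ-only site. In the remaining 81 pairs the ratio was 1.04, from a median of 21 fragments with vehicle and 18 with XY018, and 5 of them were at least 1.5-fold higher. Over all pairs, 755 (4.58%) reached such a neighbour, and without them the higher and lower shares were 10.7% and 7.97%.

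The second comparison asks whether the other antibodies gave peaks at these sites after XY018. An SREBP2 peak was called with XY018 at 3954 RORγ-only sites, 3.74% (3.63 to 3.86), against 26.4% of all RORγ vehicle peaks. An H3K27ac peak was called at 2312, 2.19% (2.1 to 2.3), against 16.5%. The rule removed sites with vehicle peaks of these antibodies, so the lower shares follow in part from it. The windows moved by 10 kb gave 0.627% for SREBP2 and 1.21% for H3K27ac. Of the XY018 peaks at the sites, 8.73% of the SREBP2 ones and 13.5% of the H3K27ac ones also overlapped a vehicle peak of the same antibody beside the site. Peaks that did not, and were thus new with XY018, were found at 3.43% of sites for SREBP2, with a median fold of 3.24 and a highest of 8.58, and at 1.90% for H3K27ac, with a median fold of 4.83 and a highest of 11.4. Alu sequence was present at 82.4% and 89.3% of these sites.

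The highest H3K27ac folds at RORγ-only sites with XY018 were 102 at the promoter of UBA2, which encodes a SUMO-activating enzyme subunit, 94.4 in an intron of GLIS2, a zinc finger transcription factor, 91.3 at the promoter of INTS11, the endonuclease of the Integrator complex, 85.4 in an exon of CELSR2, an adhesion receptor, and 84.6 at the promoter of LRRC37B. All 5 sites lay 51 to 140 bp from an H3K27ac vehicle peak, and in all 5 the XY018 peak also overlapped a vehicle peak. They had 4 to 7 RORγ fragments with vehicle, and only the one at INTS11 was called again. The highest SREBP2 folds with XY018 were 25.3 in SDK1, 24.4 in SMIM17, 22.95 at TRIM72, 19.8 in RELB, an NF-κB subunit, and 18.7 in LMX1A. All 5 SREBP2 peaks also overlapped a vehicle SREBP2 peak, 15 to 339 bp from the site. RORγ had 8 fragments at SDK1 in the vehicle library and 73 in the XY018 library, 6 and 57 at SMIM17 and 6 and 82 at TRIM72, and each of these 3 XY018 peaks also covered another RORγ vehicle peak. All 10 thus lay beside peaks of the same antibody that were already called with vehicle.

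The third comparison concerns the sequence at the sites. At least 50 bp of Alu sequence lay within 100 bp of the summit of 78.9% of RORγ-only sites, and 71.5% of summits were inside an Alu copy. The share was 84.8% at RORγ peaks with H3K27ac alone, 29.3% with SREBP2 alone, 2.16% with both, and 19.9% in windows 1 kb from the sites. It was 85.6% at the RORγ-only sites with a q of at most 1e-05, 80.04% at those called again and 78.6% at those not called again. Alu sequence was also common at peaks of the other antibodies standing alone, at 53.8% of SREBP2 vehicle peaks with neither RORγ nor H3K27ac and 49.0% of H3K27ac vehicle peaks with neither factor. It was present at 70.1% of the XY018 RORγ peaks with neither of the other antibodies. Within classes of vehicle fold, the share was 36.4 points higher at RORγ-only sites than at all other RORγ peaks (35.7 to 37.0). Alu copies are GC-rich against their surroundings, and within 10 classes of GC content the difference from all other RORγ peaks was -0.147 points. Within the same kind of classes it was 0.934 (0.313 to 1.56) from peaks with SREBP2 alone, 8.63 (5.43 to 11.8) from peaks with both, and 42.1 (41.8 to 42.5) from the windows 1 kb away. RORγ peaks with SREBP2 had a higher GC content and less Alu sequence than RORγ-only sites, and the part of either in the calls was not tested.

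The GC content within 100 bp of the summits was 50.8% ± 5.93 (SD over sites, n = 105682), against 43.5% in the windows 1 kb away. It was 50.6% at sites with Alu sequence, where windows with Alu sequence had 48.3%, and 51.6% at sites without it, where windows without it had 42.3%. RORγ peaks with SREBP2 alone had 62.6% and those with both 72.4%.

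Within the element, the summits gathered in the middle. The median summit lay at base 134 of the consensus (quartiles 89.6 to 175), and for points 1 kb away it was base 150 (80.7 to 219). Bases 121 to 150 contained 19.96% of the summits in Alu copies and 11.1% of the points 1 kb away. Bases 61 to 90, where the receptor hexamer of the consensus lies, contained 11.6% and 10.4%. The central bases 91 to 180 held 51.9% of RORγ-only summits, 52.3% of those of XY018 RORγ-only peaks, 53.4% of those of SREBP2-only peaks and 57.0% of those of H3K27ac-only peaks, so a central summit was shared by all 3 antibodies. Copies on the plus and minus strand held 49.5% and 50.5% of the summits.

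**Figure D3:**
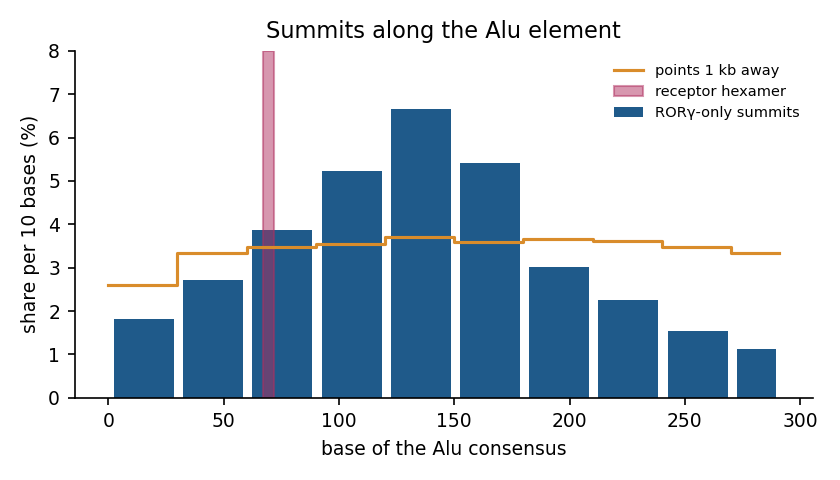
Share of RORγ-only summits inside Alu copies per 10 bases of the Alu consensus (bars), beside points 1 kb from the sites that fell in a copy (line), with the receptor hexamer as a band at bases 67 to 72. The bars are highest at bases 121 to 150, with 19.96% of summits, and not at the hexamer.

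Only a minority of Alu copies held such a site. Of 826301 copies of at least 250 bp, 69738 (8.44%) contained an RORγ-only summit, and their median identity to the consensus was 84.01%, against 85.2% for the rest. The share was 7.84% of copies with 70 to 75% identity, 11.1% at 80 to 85% and 0.755% at 95 to 100%. The other lists were also lowest in the copies most like the consensus, at 0.80% for XY018 RORγ-only peaks and 0.267% for both SREBP2-only and H3K27ac-only peaks. Reads that matched several places were removed by the authors, which affects young copies most, and its part in the low share was not tested. An XY018 RORγ summit lay in 14.7% (14.5 to 14.99) of the copies that held an RORγ-only summit with vehicle, and in 5.26% (5.21 to 5.31) of the 728414 copies that met no vehicle RORγ peak.

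**Figure D4:**
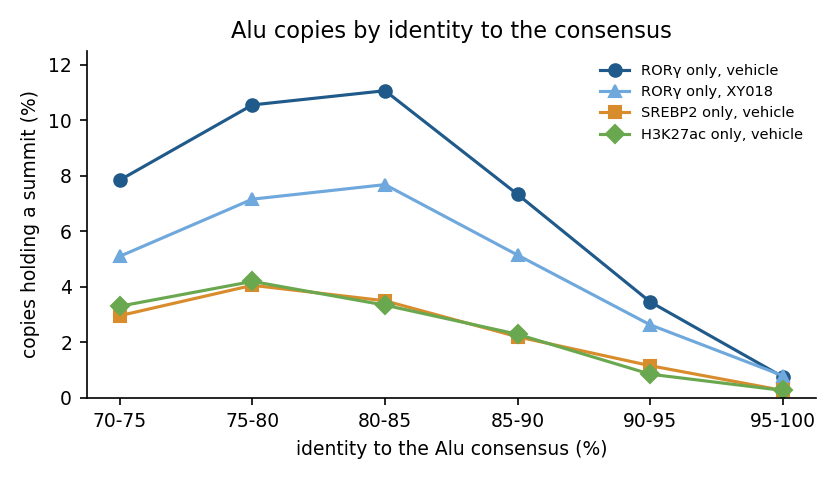
Share of Alu copies of at least 250 bp (%) that held a summit, by identity to the consensus (%), for peaks of 1 antibody standing alone. RORγ-only sites with vehicle reach 11.1% at 80 to 85% identity and 0.755% at 95 to 100%, and all 4 lists are lowest in that last class.

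Over all sites, those with Alu sequence were called again about as often as those without it. The shares were 15.8% and 14.7%, and within classes of vehicle fold the difference was -1.31 points (-1.90 to -0.721). This did not hold at a q of at most 1e-05, where 841 of 2618 sites with Alu sequence were called again, against 1110 of all 3057. Alu sequence was there at 75.8% of sites called again and 91.3% of those not called again. The sequence of the strongest site set a smaller kind apart. Similarity over at least 50 bp to the sequence within 100 bp of the summit in LINC02341, called SVA type here, was found at 318 RORγ-only sites, 0.301% of them, against 1.05% of all RORγ vehicle peaks. They had a median fold of 4.48 and a GC content of 74.6%, and 81 of them passed a q of 1e-05. Of these 318, 191 were called again with XY018, 60.1% (54.4 to 65.5), which was 40.1 points (35.0 to 45.1) above the other RORγ-only sites within classes of vehicle fold. An SREBP2 peak was called with XY018 at 45 of them (14.2%). The type was more common at RORγ peaks with SREBP2 alone, at 1213 (3.598%), and was at 228 (0.943%) of those with both. The probe was taken from the site with the highest fold after its value was seen, and whether its matches are SVA copies was not checked. SVA copies are nearly alike, so reads could be placed among such copies with uncertainty. The 22037 sites with neither repeat were called again in 14.1%.

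The receptor hexamer AGGTCA was found mostly in Alu sequence. On either strand within 100 bp of the summit it was present at 34352 sites, 32.5%, and 93.7% of these had Alu sequence. The share was 38.6% of sites with Alu sequence and 30.6% of windows 1 kb away with Alu sequence, and 9.75% and 10.3% where there was none, so outside Alu the hexamer was no more common than nearby. All RORγ vehicle peaks held it in 25.6%. GAGGTCAGG, the hexamer with its neighbours as the consensus has them, was at 20.6% of sites, 25.9% of those with Alu sequence and 0.595% of those without. The core of the ROR response element, which needs A or G before GGTCA and so overlaps the hexamer, was at 269 sites, 0.255% (0.225 to 0.287), below the 0.594% of windows 1 kb away and near the 0.216% of all RORγ vehicle peaks. The gap was smaller within like sequence, at 0.203% against 0.267% where both had Alu and 0.447% against 0.676% where both had none. With any base before GGTCA the core was at 4766 sites (4.51%), of which 97.0% had Alu sequence. TCAAGGTCA was at 0.168% of sites and 0.274% of windows. It was at 0.140% and 0.136% with Alu sequence and at 0.273% and 0.309% without it. Sites with the hexamer were called again in 15.9% and those without it in 15.5%, those with the RORE core in 12.3% and those with the looser core in 14.8%.

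Other motifs were searched in the same windows, on both strands. The sterol element TCACNCCAC was at 3.78% of sites against 1.58% of windows 1 kb away, but at 4.44% against 5.31% where both had Alu sequence and at 1.35% against 0.654% where both had none. The GC box GGGCGG was at 7.87% against 4.50%, with Alu sequence at 7.57% against 6.69% and without it at 9.00% against 3.95%. The GATA motif AGATAA was at 4.73% against 12.7% and the forkhead motif TGTTTAC at 0.755% against 2.78%. With Alu sequence these 2 were at 4.14% against 5.88% and 0.456% against 0.929%. Without it they were at 6.93% against 14.4% and 1.87% against 3.23%. The TEAD motif GGAATG was at 5.79% against 10.4%, but at 12.2% against 11.6% where both had no Alu sequence. The CTCF core was at 0.412% against 0.606%, and at 1.32% against 0.705% where there was no Alu sequence. A match describes the letters in the window and is not a site of binding.

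The sites were mostly far from genes' starts. Promoters, from 1000 bp upstream to 100 bp downstream of a transcript start, held 5628 of them, 5.33% (5.19 to 5.46), exons 3.68%, introns 51.7% and intergenic DNA 39.3%. The windows moved by 10 kb gave 6.65%, 6.89%, 49.0% and 37.5% before any was left out for a vehicle peak. RORγ peaks with SREBP2 alone lay at promoters in 19.6%, those with both in 59.5% and those with H3K27ac alone in 13%. Of the RORγ-only sites with Alu sequence 4.34% lay at promoters, and of those without it 8.99%. Within 1 kb, 16.2% of the sites had another RORγ-only site and 10.3% had one of the other RORγ vehicle peaks. The shares that an even spread would give were not computed.

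The 10 sites with the highest vehicle fold, from 9.21 to 13.4, were all called again with XY018, and 6 of them had an SREBP2 peak and none an H3K27ac peak with XY018. Of all RORγ-only sites with a q of at most 1e-05, 36.3% were called again, 8.70% had an SREBP2 peak and 1.47% an H3K27ac peak. Over all RORγ vehicle peaks at that q the shares were 91.6%, 86.9% and 53.0%. Of the 10 sites, 5 were of the SVA type, 2 were Alu copies and 3 held neither repeat. The site in LINC02341 (chr13:43050035-43050601) had 27 vehicle fragments (17.8 to 39.3) and 17 XY018 fragments (9.90 to 27.2), and its SREBP2 fold with XY018 was 5.56. The site at chr11:77201149-77201503, 15643 bp from PAK1, a kinase gene, had 20 fragments with vehicle and 10 with XY018. In an intron of PIAS1, a SUMO ligase gene (chr15:68427547-68428091), there were 18 in both libraries, and that site lay 93 bp from an SREBP2 vehicle peak. The site in PCGF3 (chr4:741331-741745) had 18 and 13. The Alu site in ENSG00000226965 (chr7:110110964-110111255) had 16 and 5, and the Alu site near the zinc finger gene ZNF138 (chr7:64248594-64249048) had 16 and 10. The remaining 4 lay at a promoter of the pseudogene HERC2P5 (18 and 14), at a promoter of ENSG00000180015 (17 and 15), in TM9SF5P (19 and 11) and in LIPE-AS1 (16 and 11). Intervals at counts of this size are wide, as the overlapping ones at LINC02341 show.

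The sites with the highest smaller fold of both RORγ libraries included, beyond these, the neighbourhoods of BRWD3 on chrX (14 fragments with vehicle, 13 with XY018), PRMT6 on chr1 (14 and 23) and ADGRL1 on chr19 (13 and 14), and introns of SNX25 on chr4 (13 and 14) and ITGB1-DT on chr10 (15 and 13). Of that set of 10, 8 had an SREBP2 peak with XY018. Among RORγ-only sites called again with a q of at most 1e-05 the share was 13.2%, and over all RORγ vehicle peaks at that q 86.9%. The site near ADGRL1 had the highest SREBP2 fold with XY018 among new peaks, 8.58. The 5 strongest sites that were not called again all held Alu sequence, with folds of 7.85 to 8.39 and 14 or 15 fragments. They lay in ZIM2-AS1, ENSG00000225087, LINC01205 and RBFOX1 and near TRA2B, 40548 bp or more from any H3K27ac vehicle peak. Among all sites with a q of at most 1e-05, Alu sequence was at 91.3% of those not called again and 75.8% of those called again.

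At promoters of protein-coding genes the strongest site lay at KRTAP10-1, a hair keratin-associated protein gene, with a fold of 7.83, 13 fragments with vehicle and 8 with XY018. That at LSAMP, a neuronal adhesion gene, had a fold of 6.60, with 13 and 8. The next 8, at 2 starts of MCF2L and at GSDME, SDK1, ZNF19, CACNA1C, AEBP2 and MYO3B, had folds of 6.15 to 6.52, and none of them was called again. Of the 10, 6 held Alu sequence, and 1, at CACNA1C, had an SREBP2 peak with XY018.

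Gene by gene, the sites were most numerous in long genes. In the bodies or promoters of 20090 protein-coding genes, 51629 sites were counted over 11292 genes (56.2%), at 3.75 per 100 kb and 8.86 per 100 Alu copies, and 7477 of the 51629 were called again. For genes, the figure per 100 Alu copies counts all sites, with or without Alu sequence, so it is also high where Alu copies are few. RBFOX1, a neuronal splicing factor gene of 2474 kb, held 285, of which 65 were called again. WWOX, an oxidoreductase gene at a fragile site, held 175 (61 called again), PTPRN2, a phosphatase-like gene, 144 (42), CNTNAP2, a neurexin-family gene, 132 (30), and GALNT17, a glycosyltransferase gene, 121 (32). PTPRN2 did so with 124 Alu copies, where RBFOX1 has 1032. Per length, among genes of at least 100 kb, COL26A1 was highest with 76 sites in 196 kb, followed by RYR1 with 47, NUP210L with 44, FAM171A1 with 40 and TMEM179 with 31, of which 15 were called again. TMEM179 has 22 Alu copies and 23.7 sites per 100 kb.

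The gene lists tied to RORγ and SREBP2 differed in their density of sites, on small counts without intervals. Of 21 cholesterol biosynthesis genes, 5 held 8 sites, at 1.64 per 100 kb and 3.51 per 100 Alu copies, and 1 of the 8 was called again. LSS, lanosterol synthase, held 4, at least 1 of them at its promoter, and ACAT2, MSMO1, MVD and SQLE held 1 each. HMGCS1, a synthase at the head of the pathway, held none. These 21 genes held 41 other RORγ vehicle peaks. The rule set those aside for an SREBP2 or H3K27ac peak, so the density of sites follows in part from it. Of 19 circadian clock and ROR or REV-ERB genes, 10 held 48 sites, at 2.67 per 100 kb and 8.96 per 100 Alu copies, with 3 called again. RORA, a related receptor, held 21, none of them called again, RORB held 7, 3 of them called again, and BMAL1 and NR1D1 held none. Of 12 Th17 genes, IL23R held 12 sites and MAF 1, and IL17A held none, which came to 3.61 per 100 kb and 10.7 per 100 Alu copies. Among 13 basal breast genes, 7 held 12 sites, at 1.71 per 100 kb and 4.78 per 100 Alu copies, with 3 each in CDH3 and ITGB4 and 1, called again, at the promoter of KRT17. Among 10 luminal and hormone receptor genes, 4 held 13 sites, 8 of them in ESR1, at 1.44 per 100 kb and 5.02 per 100 Alu copies.

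All 19 of the long neuronal adhesion and synapse genes held sites, 1252 in all with 252 called again, at 3.90 per 100 kb, near the 3.75 of all protein-coding genes, and at 16.7 per 100 Alu copies, above their 8.86. The 19 genes had fewer Alu copies, 23.3 per 100 kb against 42.3 in all protein-coding genes. Sites ranged from 14 in CSMD1, of 2060 kb, and 17 in DMD, of 2242 kb, to the 285 of RBFOX1. Of 21 clustered developmental regulators, 7 held 25 sites, at 5.32 per 100 kb and 32.5 per 100 Alu copies. They had 16.4 Alu copies per 100 kb. PAX2, PAX7 and LHX2 held 8, 7 and 5 of the 25 sites, and HOXA9, with 0 Alu copies, held 2, both called again. These 21 genes also held 94 other RORγ vehicle peaks.

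The sites were unevenly spread over the chromosomes. They ranged from 20.1 per Mb on chromosomes 4 and 15 to 68.6 on chromosome 16 and 112 on chromosome 19. Per 1000 Alu copies, sites with Alu sequence ranged from 46.8 on chromosome 15 to 118.2 on chromosome 16, with 117 on chromosomes 7 and 19. The share called again ranged from 7.46% on chromosome 15 to 22.1% on chromosome 7. Across the 23 chromosomes, sites per 1000 Alu copies and the share called again had a Pearson r of 0.92 and a Spearman rho of 0.91, and r was 0.90 without chromosomes 16 and 19. Sites and Alu copies per Mb had an r of 0.86 and a rho of 0.66, and r was 0.58 without those 2, so that relation rested in part on them. The points share the same libraries, and the copy number of each chromosome in this line was not measured. The mean local background of SREBP2 and H3K27ac vehicle peaks, in units of the genome-wide one, also moved with the sites per 1000 Alu copies, with an r of 0.62 and 0.69 and a rho of 0.71 and 0.75. With the share called again it had an r of 0.76 and 0.78. The part of copy number in the number of sites was not tested.

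**Figure D5:**
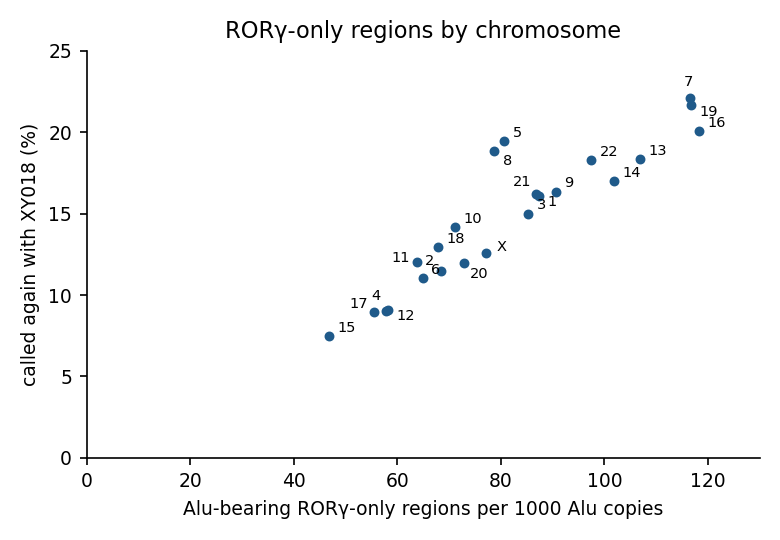
RORγ-only sites with Alu sequence per 1000 Alu copies and the share of RORγ-only sites called again with XY018 (%), with a point for each of the 23 chromosomes. The points run from chromosome 15, with 46.8 and 7.46%, to chromosomes 7, 16 and 19, with 117 to 118.2 and 20.1 to 22.1%.

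In windows of 5 Mb, the most sites lay at chr19:50000001-55000000, with 870, of which 83.3% had Alu sequence and 24.0% were called again. At chr7:65000001-70000000 there were 826, of which 92.7% had Alu sequence and 31.5% were called again. Another dense window, chr9:135000001-140000000, with 607 sites, had Alu sequence at 38.2% of them.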

How the data were processed

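ChIP-seq peak lists of 6 immunoprecipitated libraries of HCC70 cells were used, without the 6 inputs. Per the study's methods and the submitters' processing notes, the authors aligned reads to hg19 (the methods name BWA, the notes Bowtie2), removed duplicate and multiply placed tags, and called peaks with MACS2 2.1.0 for each library. Per the file headers and format, the deposited values are the fold enrichment (a ratio), the −log10 p and −log10 q and a capped display score, which was not used.

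The fold and −log10 p were inverted under the Poisson model to whole fragments at the summit, within 5% of a step, for all RORγ vehicle peaks. Tags per kb came from the genome-wide background over the fragment length. Overlap meant at least 1 shared bp. Shares have exact (Clopper-Pearson) binomial and fragment numbers exact Poisson 95% intervals, covering counting error only. Differences were averaged over 10 classes of fold or GC content, weighted by sites. Alu copies were found with BLAST+ 2.17.0 (word size 11, at least 50 bp at 70% identity) in GRCh37, with the consensus read from that genome, since the genome has no lower-case repeat mask and the planned comparison by mask could not be made. Genes came from GENCODE 44, lifted to GRCh37. Python 3.11.15, pandas 2.3.3, NumPy 2.4.6, SciPy 1.17.1, pysam 0.24.0 and samtools 1.23.1 were used. The inversion and the class differences were tested on simulated data.

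The sites and all gene lists were chosen with earlier results of these data known. Named sites were those with the highest fold (10 in all, 10 called again, 5 not called again, 10 at protein-coding promoters), the highest XY018 folds of H3K27ac and SREBP2 (5 each), the 5 genes with most sites, in all and per kb, and those of the listed genes. The Alu and SVA scans, GC classes and the removal of neighbouring peaks were added after the data were seen. Some sequences and genes are not reported here.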

Additional observations from a re-analysis of the deposited data

Results flagged for a closer look

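Chromosome Y was outside the comparisons. It held 111 RORγ vehicle peaks, and 66 of them met no SREBP2 and no H3K27ac vehicle peak. Of these 66, 35 were called again with XY018, where 15.6% of the RORγ-only sites and 36.4% of all RORγ vehicle peaks of the other chromosomes were. Whether this line carries a chromosome Y was not tested, so the calls are not taken as RORγ sites on it. Input libraries were not analysed here.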

How the results depend on the processing

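With 1 library per group, depth limits every call, and most sites rest on a few fragments. No paired analysis was possible because each group has 1 library. Of 51 alternatives, 9 stayed close to the value given, 41 moved and 1 reversed. A stricter q (0.01, then 1e-05) shortens both lists by construction. It left 43981 and 3057 sites, of which 11.7% and 6.41% were called again. The difference in that share from other RORγ peaks was then -31.6 and -49.2 points. At the sites left, the receptor hexamer was at 35.0% and 35.6% and the RORE core at 0.211% and 0.131%. GC there was at 51.6% and 53.0% and Alu at 84.7% and 85.6%. Promoters held 5.76% of the 3057 sites. For the other antibodies the stricter q was set on their XY018 peaks only, over all 105682 sites. SREBP2 was then at 1.82% and 0.219%, and H3K27ac at 1.13% with 1e-05. At the 3057 sites, XY018 peaks of any q were at 8.70% for SREBP2 and 1.47% for H3K27ac. Requiring 50% overlap gave 12.4% called again, 2.75% with SREBP2 and 1.77% with H3K27ac. Summits within 100 bp gave 9.40%, lists of equal length 17.5%, no region within 1000 bp 14.4% (Alu 83.6%), and leaving out sites reached through a neighbour 15%. New peaks alone gave 3.43% for SREBP2 and 1.90% for H3K27ac. The difference in calling was -56.5 without classes and -27.1 in classes of −log10 p. The difference in Alu share was 56.9 without classes and reversed to -0.147 in GC classes. Promoters within 5000 bp held 30.6%, and those of protein-coding genes 2.89%. Within 50 bp of the summit the hexamer was at 14.8%, the RORE core at 0.133% and GC at 50.8%. Among sites called again they were at 33.1% and 0.200%, with Alu at 80.04%. Alu was at 71.5% by summits inside a copy and at 59.3% with at least 150 bp. Beyond these constructions, the cause was not tested.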
